A study of Mus musculus with 18 samples.

Results

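The 10 genes described here encode the nuclear receptors and partner factors that set fuel use in the heart. They are *Ppara*, *Ppard*, *Pparg* and *Rxra*, *Esrra*, *Esrrb* and *Esrrg*, the coactivator genes *Ppargc1a* and *Ppargc1b*, and *Klf15*. Their regions were the union peaks whose annotated gene symbol is a member, plus peaks with no annotated gene that overlap the interval of a member gene. This gave 143 of the 101256 peaks of the table, 20 of them annotated to a promoter (within 5000 nt of a start) and 123 inside the genes. Another 12 peaks inside the intervals carry the annotation of a different gene and were left out.

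Peroxisome proliferator-activated receptors (PPARs) bind fatty acids and their derivatives, pair with retinoid X receptors such as RXRA and switch on genes of fatty acid uptake and oxidation. Estrogen-related receptors (ERRs) act without a known natural hormone, and with the coactivators PGC-1α and PGC-1β they drive genes of mitochondria and oxidative metabolism. KLF15 is a zinc finger factor of heart and other metabolic tissues that acts on amino acid, lipid and glucose use and follows the daily clock. The adult heart takes most of its energy from fatty acids.

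Chromatin came from snap-frozen ventricles of adult mice, each preparation being pooled from 2 hearts. Hearts of 3 genotypes were used. Beside WT there were *Trdn-as* KO, where a polyA site inserted in the first exon of the lncRNA stops its transcription in every cell, and *Mettl3* KO (Mettl3lox/lox:alphaMHC-MerCreMerpos), where a tamoxifen-activated Cre under the alphaMHC promoter removes the m6A methyltransferase from cardiomyocytes while the other cells of the heart keep it. The labels name the controls WT and do not say whether they carried floxed alleles or received tamoxifen. RNA polymerase II (Pol II) and CTCF, a DNA-binding protein of insulators, were precipitated in 2 libraries per genotype, and IgG, the background, in 1. Nothing states that replicate libraries came from separate hearts, so the p-values measure the spread between these libraries, which may be technical.

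Values are reads per peak, normalized and rounded by the authors, and are called normalized values. Differences were tested with limma on log2(value + 1) across all peaks in which 2 or more of the 6 libraries of a target reached 10, with Benjamini-Hochberg adjustment. All fold changes are on that scale, which understates changes of low values. Of the 143 peaks, 87 were tested for Pol II and 69 for CTCF. At the targeted *Trdn-as* promoter, Pol II was 530 and 595 (WT), 140 and 100 (*Trdn-as* KO) and 503 and 491 (*Mettl3* KO). The *Mettl3* promoter peak, which lies outside what a conditional deletion need remove, checks no label. Pol II libraries held 35.5% to 42.5% of their uniquely mapped reads in peaks, except *Trdn-as* KO replicate 2, which held 18.6% and stands apart. Signal on chromosome Y was 0 in the 2 Pol II libraries of *Trdn-as* KO and between 223 and 326 in the other 4, so sex and this genotype cannot be told apart. In tissue chromatin, fewer cells of a type and less Pol II per cell cannot be told apart. Of the 8 cardiomyocyte markers, all had a promoter peak, with a summed Pol II value of 25808 and 27672 (WT), 26335 and 20298 (*Trdn-as* KO) and 26687 and 27004 (*Mettl3* KO).

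The windows at the starts of 4 of the genes are shown first, because they are where Pol II was and was not found. RefSeq sequences of 300 bases, 250 before and 50 after a start, were taken in GRCm38.p6, and 9 of the 10 members had at least 1 window, 16 in all. The peaks are in GRCm39, so windows and peaks were joined by the distance of the start from the gene's 5′ end and not by coordinate. Letters in capitals mark AGGTCA (the core site that nuclear receptors bind), TATAAA (the TATA box) and CACGTG (the E-box that clock factors bind), on either strand. Given here are the window of *Klf15*, the 3 of *Pparg*, the 1 of *Ppargc1a* and 2 of the 4 of *Esrrg*.
Klf15, start at the gene's 5′ end, chr6:90462326-90462625 (plus strand), under a Pol II peak: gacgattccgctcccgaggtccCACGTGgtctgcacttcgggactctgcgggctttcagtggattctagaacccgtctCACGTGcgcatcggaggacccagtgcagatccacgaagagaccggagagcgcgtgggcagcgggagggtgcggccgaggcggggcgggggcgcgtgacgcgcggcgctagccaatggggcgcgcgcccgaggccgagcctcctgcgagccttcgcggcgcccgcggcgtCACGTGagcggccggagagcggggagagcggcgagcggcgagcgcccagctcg
Pparg, start 193 nt from the 5′ end, chr6:115360894-115361193 (plus strand), under the promoter peak: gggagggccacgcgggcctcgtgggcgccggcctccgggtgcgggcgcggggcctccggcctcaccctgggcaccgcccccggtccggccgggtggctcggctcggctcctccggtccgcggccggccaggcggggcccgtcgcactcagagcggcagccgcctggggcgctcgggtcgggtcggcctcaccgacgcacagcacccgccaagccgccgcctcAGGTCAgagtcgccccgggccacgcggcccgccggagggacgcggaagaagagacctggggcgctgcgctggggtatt
Pparg, start at 1398 nt, chr6:115362099-115362398 (plus strand), under the same peak: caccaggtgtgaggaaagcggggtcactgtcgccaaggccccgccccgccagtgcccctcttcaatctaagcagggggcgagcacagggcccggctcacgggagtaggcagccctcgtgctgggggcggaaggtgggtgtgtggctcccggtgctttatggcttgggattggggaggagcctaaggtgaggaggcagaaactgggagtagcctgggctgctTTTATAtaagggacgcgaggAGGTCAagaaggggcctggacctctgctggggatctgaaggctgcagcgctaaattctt
Pparg, start at 61115 nt, chr6:115421816-115422115 (plus strand), under no peak: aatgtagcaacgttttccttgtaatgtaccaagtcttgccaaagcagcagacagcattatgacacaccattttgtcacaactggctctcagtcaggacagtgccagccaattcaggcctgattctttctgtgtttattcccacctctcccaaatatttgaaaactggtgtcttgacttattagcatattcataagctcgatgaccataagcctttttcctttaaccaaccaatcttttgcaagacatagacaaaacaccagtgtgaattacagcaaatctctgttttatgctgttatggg
Esrrg, start at 215 nt, chr1:187608756-187609055 (plus strand), under the promoter peak: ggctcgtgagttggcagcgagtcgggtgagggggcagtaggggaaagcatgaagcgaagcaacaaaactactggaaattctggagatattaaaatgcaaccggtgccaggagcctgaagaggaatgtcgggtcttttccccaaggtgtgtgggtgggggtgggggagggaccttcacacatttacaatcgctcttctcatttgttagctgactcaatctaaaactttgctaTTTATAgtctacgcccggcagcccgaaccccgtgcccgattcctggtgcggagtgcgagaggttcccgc
Esrrg, start at 389036 nt, chr1:187997577-187997876 (plus strand), under a peak inside the gene: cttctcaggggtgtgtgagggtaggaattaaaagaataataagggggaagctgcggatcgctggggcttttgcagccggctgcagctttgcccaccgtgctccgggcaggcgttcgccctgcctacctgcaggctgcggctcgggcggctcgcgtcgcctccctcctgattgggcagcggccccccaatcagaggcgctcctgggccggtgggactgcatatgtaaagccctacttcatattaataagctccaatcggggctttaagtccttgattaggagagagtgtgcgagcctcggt
Ppargc1a, distal start, chr5:51567676-51567975 (minus strand), under the promoter peak: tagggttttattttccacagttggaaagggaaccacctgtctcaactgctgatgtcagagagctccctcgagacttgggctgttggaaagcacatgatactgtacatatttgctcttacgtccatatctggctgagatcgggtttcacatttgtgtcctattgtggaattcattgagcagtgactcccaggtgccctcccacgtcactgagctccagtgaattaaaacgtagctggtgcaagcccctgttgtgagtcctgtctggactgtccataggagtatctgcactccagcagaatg

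The *Klf15* window held 3 E-boxes. It was the only one of the 16 windows with any, a share near the 7.15% of the 32851 windows of the reference that held CACGTG. How many of those held 3 was not counted. The core site AGGTCA was found in 3 of the 16 windows and in 16.3% of all windows, and the 3 belonged to *Pparg*, with 2 windows, and to an inner start of *Rxra*. TATAAA was in 2 of the 16, those of *Esrrg* at 215 nt and *Pparg* at 1398 nt, and in 13.6% of all windows. No member window held the PPAR and RXR element of 2 AGGTCA copies with 1 base between them (0.0396% of all windows), the ERR element TCAAGGTCA (0.423%, which contains AGGTCA) or the cAMP element TGACGTCA (1.79%). The GC content ran from 40.3% in the inner *Pparg* window, which had no peak, to 83.0% in the *Rxra* window, against a median of 52.7% over all windows. These are matches of letters and do not show that a factor is bound.

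Each of the 10 genes had a Pol II peak at an annotated start. Per kb of peak, a scale that allows for peak width but lowers wide peaks, the leading promoter peak (the promoter peak with the highest mean Pol II) was highest at *Klf15*, with 240.2 ± 27.3 normalized units per kb (mean ± SD over the 6 libraries). *Ppara* followed with 235 ± 15.0 and *Ppargc1b* with 219 ± 22.9. The ranges of these 3 genes overlapped each other and lay above the highest library of every other member. *Esrra* (160.0 ± 15.2), *Rxra* (152 ± 12.1), *Esrrb* (144 ± 13.6), *Ppard* (138 ± 21.5) and *Pparg* (130.2 ± 24.0) overlapped with their neighbours in this order. *Esrrg* (105 ± 20.7) and the distal promoter of *Ppargc1a* (94.7 ± 21.5) were lowest. Among the leading promoter peaks of 13979 genes, *Klf15* stood at the 84.8th percentile per kb, *Ppara* at the 83.6th, *Ppargc1b* at the 79.5th and the distal *Ppargc1a* promoter at the 37.4th. By the value of the whole peak the order of the first 3 was reversed, with *Ppargc1b* at the 99.6th percentile, *Ppara* at the 97.6th and *Klf15* at the 93.2th.

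**Figure D1:**
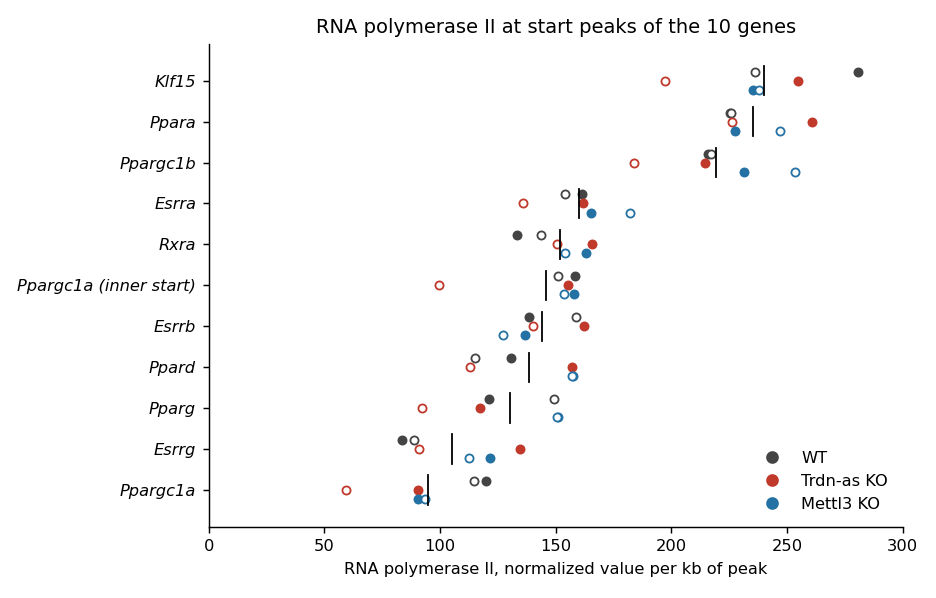
RNA polymerase II at the start peaks of the 10 genes, as normalized value per kb of peak (x axis), 1 row per peak. Filled points are replicate 1 and open points replicate 2, and the black line is the mean of the 6 libraries. *Klf15*, *Ppara* and *Ppargc1b* lie above the other genes, and the open red point, *Trdn-as* KO replicate 2, is often the lowest.

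Against WT, no member peak passed the test in either knockout. For *Trdn-as* KO against WT, 0 of 87 Pol II peaks were called by limma, where 0.304% of all 52655 peaks were, and 12 (13.8%) had an unadjusted p under 0.05, all lower, against 7.7% of all peaks. Of these 12, 9 were peaks inside *Ppargc1b*, and the other 62 tested peaks of the members had 3 (4.84%). For *Mettl3* KO against WT, 0 of 87 were called, against 1.19% of all peaks, and 10 (11.5%) had an unadjusted p under 0.05, 6 higher and 4 lower, against 15.5% of all peaks. At the 10 leading promoter peaks the median log2 difference was -0.03 in *Trdn-as* KO, equal to that of all 12343 leading promoter peaks tested, and 0.15 in *Mettl3* KO, where that of all leading promoter peaks was 0.26. With 2 libraries per genotype, the standard errors at these peaks were 0.119 to 0.244.

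**Figure D2:**
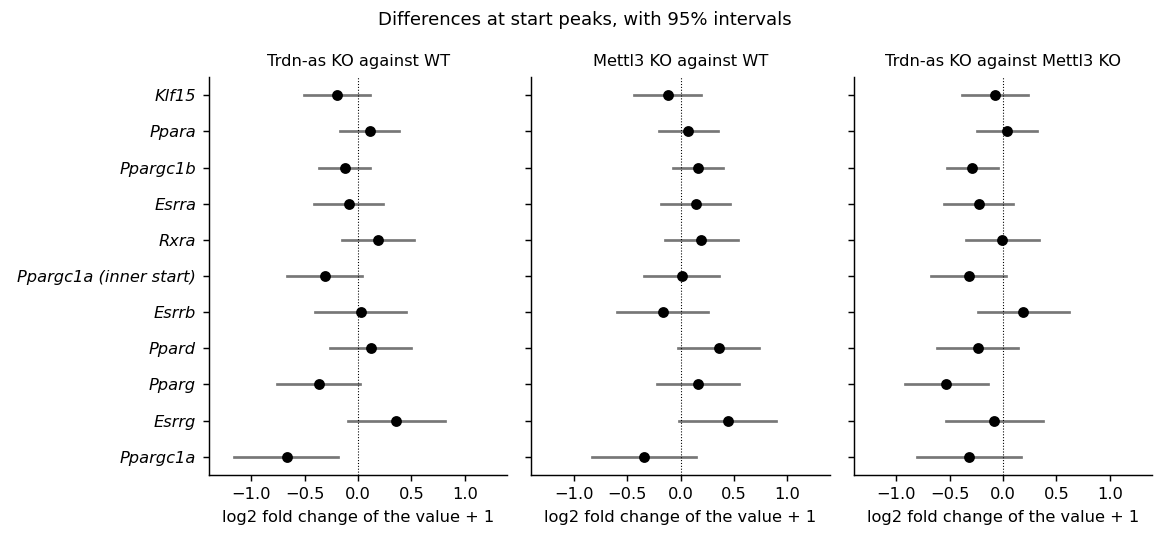
Difference in RNA polymerase II at each start peak on the log2(value + 1) scale (x axis), with 95% intervals of the limma fit as bars, for the 3 comparisons. None passed an adjusted p of 0.05, and the intervals of the distal *Ppargc1a* promoter in *Trdn-as* KO against WT and of *Pparg* and *Ppargc1b* in *Trdn-as* KO against *Mettl3* KO lie below 0.

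*Ppara* (ENSMUSG00000022383, chromosome 15 from 85619184 to 85687020, plus strand, GRCm39) encodes the main fatty acid receptor of cardiomyocytes. Its promoter peak held 769 and 770 (WT), 890 and 772 (*Trdn-as* KO) and 776 and 842 (*Mettl3* KO). On this scale the 4 knockout libraries all lay above both WT libraries, by as little as 2, and the knockouts overlapped each other. Scaled to uniquely mapped reads (RPM) the order was another, with 65.0 and 69.7 (WT), 64.3 and 35.5 (*Trdn-as* KO) and 58.9 and 69.7 (*Mettl3* KO), so that *Trdn-as* KO was below WT. That scaling lowers *Trdn-as* KO over the peaks as a whole, with a median log2 difference from WT of -0.65 and not -0.07. An order on it is therefore not particular to a gene. At the *Ppara* promoter the log2 difference of the normalized values was 0.11 (95% interval -0.17 to 0.38) in *Trdn-as* KO and 0.07 (-0.21 to 0.35) in *Mettl3* KO, the first being 0.00 without *Trdn-as* KO replicate 1 and 0.21 without replicate 2. The 3 coding starts of the gene, at 581 to 1148 nt, all lay under this peak, which with the other promoter peaks carried 92.2% of the Pol II signal of the gene's 12 peaks.

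*Ppard* (ENSMUSG00000002250, chromosome 17 from 28451674 to 28520448, plus strand) encodes the PPAR found in most tissues. Its leading peak held 252 and 222 (WT), 303 and 218 (*Trdn-as* KO) and 304 and 303 (*Mettl3* KO). Both *Mettl3* KO libraries were above both WT libraries, also when scaled to uniquely mapped reads, with a log2 difference of 0.36 (-0.02 to 0.74) and an adjusted p of 0.354. A smaller peak 3591 nt into the gene went the other way in *Mettl3* KO, with 56 and 73 (WT), 48 and 47 (*Trdn-as* KO) and 47 and 29 (*Mettl3* KO) (log2 difference -0.78, adjusted p = 0.227 by limma).

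*Pparg* (ENSMUSG00000000440, chromosome 6 from 115337912 to 115467360, plus strand) encodes the receptor that drives the formation of fat cells. Its promoter peak held 227 and 280 (WT), 220 and 173 (*Trdn-as* KO) and 283 and 282 (*Mettl3* KO). Both *Trdn-as* KO libraries were lowest, and the difference from *Mettl3* KO was -0.53 (-0.92 to -0.14; adjusted p = 0.138 by limma), and -0.36 (adjusted p = 0.331) without *Trdn-as* KO replicate 2. Without *Trdn-as* KO replicate 1 it was -0.70 and passed the test (adjusted p = 0.00805). The start of the transcript Pparg-201, 61115 nt into the gene, had no peak. Of 8 adipocyte markers, *Cidec*, *Lep* and *Retn* had no promoter peak, and *Adipoq*, the defining one, was between 1 and 10 in every Pol II library. The summed signal of these markers, most of it at *Fabp4*, was 1333 and 1457 (WT), 1303 and 986 (*Trdn-as* KO) and 1081 and 1095 (*Mettl3* KO). *Fabp4* held 1093 and 1159 (WT) and 796 and 807 (*Mettl3* KO), and *Lipe* 206 and 249 (WT) and 235 and 240 (*Mettl3* KO). *Cfd* and *Plin1* were at 35 or less in every Pol II library, so the sum mainly follows *Fabp4*. The part of fat cells in the *Pparg* values was not tested.

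*Rxra* (ENSMUSG00000015846, chromosome 2 from 27566452 to 27652969, plus strand) encodes the partner with which the PPARs bind DNA. The peak at its starts held 323 and 348 (WT), 401 and 364 (*Trdn-as* KO) and 395 and 373 (*Mettl3* KO). On this scale all 4 knockout libraries were above both WT libraries, by a log2 difference of 0.19 (-0.15 to 0.53) in *Trdn-as* KO and 0.19 (-0.14 to 0.53) in *Mettl3* KO, and neither difference passed the test (adjusted p = 0.877 and 0.601 by limma). Scaled to uniquely mapped reads the WT libraries held 27.3 and 31.5 and those of *Trdn-as* KO 29.0 and 16.7 RPM, and the log2 difference of *Trdn-as* KO from WT was -0.41, so the order does not hold on that scale. On the normalized scale that difference was 0.12 without *Trdn-as* KO replicate 1 and 0.26 without replicate 2. The inner starts at 32852 and 34143 nt had no peak. A second promoter peak centred 3269 nt into the gene was broad and strong, at 197 and 245 (WT), 236 and 185 (*Trdn-as* KO) and 230 and 210 (*Mettl3* KO).

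*Esrra* (ENSMUSG00000024955, chromosome 19 from 6888345 to 6899208, minus strand) encodes the ERR that works most closely with PGC-1α. Its single peak held 453 and 432 (WT), 454 and 381 (*Trdn-as* KO) and 464 and 512 (*Mettl3* KO). The *Trdn-as* KO and WT values overlapped, and both *Mettl3* KO values were above WT by less than the error (log2 difference 0.14, -0.18 to 0.46). Scaled to uniquely mapped reads *Mettl3* KO held 35.2 and 42.4 RPM around the 38.3 and 39.1 of WT, so that order does not hold there. The gene lies against *Prdx5*, to which 3 peaks in its interval are annotated, and reads of neighbouring genes cannot be told apart here.

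*Esrrb* and *Esrrg*, the other ERR genes, each had a second start inside the gene with its own Pol II peak. *Esrrb* (ENSMUSG00000021255, chromosome 12 from 86407891 to 86568402, plus strand) held 163 and 187 (WT), 191 and 165 (*Trdn-as* KO) and 161 and 150 (*Mettl3* KO) at its promoter. Its inner start, at 60527 to 60766 nt, held 72 and 68 (WT), 92 and 92 (*Trdn-as* KO) and 93 and 70 (*Mettl3* KO). The ratio of the inner to the outer start was 0.442 and 0.364 in WT and between 0.467 and 0.578 in the 4 knockout libraries. *Esrrg* (ENSMUSG00000026610, chromosome 1 from 187340988 to 187947082, plus strand) is expressed in highly oxidative tissue. Its promoter held 114 and 121 (WT), 184 and 124 (*Trdn-as* KO) and 166 and 154 (*Mettl3* KO). On this scale the knockout libraries were all higher, with a log2 difference of 0.36 (-0.10 to 0.82) in *Trdn-as* KO and 0.44 (-0.01 to 0.90) in *Mettl3* KO that did not pass the test. With uniquely mapped reads as the library size the first was -0.24 and the second 0.30. The difference in *Trdn-as* KO was 0.08 without its replicate 1 and 0.64 without replicate 2. The inner start of *Esrrg*, at 389036 nt, held 49 and 59 (WT), 74 and 65 (*Trdn-as* KO) and 65 and 59 (*Mettl3* KO). The other 2 starts of the gene with a window, at 42967 and 43450 nt, lay under a peak from 42087 to 44090 nt that is annotated to the lncRNA gene ENSMUSG00000103961 and was left out by the rule. It held 136 and 157 (WT), 199 and 155 (*Trdn-as* KO) and 190 and 182 (*Mettl3* KO). Per kb of peak its mean was 84.7 normalized units, against 105 at the *Esrrg* promoter. The promoter peaks carried 38.5% of the Pol II signal over the 23 peaks of this gene, against 55.0% at *Esrrb*.

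*Ppargc1a* (ENSMUSG00000029167, chromosome 5 from 51611592 to 51725068, minus strand) encodes PGC-1α, the inducible coactivator of mitochondrial genes. Its strongest Pol II peak carried no promoter annotation. It spanned 13279 to 15885 nt from the 5′ end, where the transcripts Ppargc1a-203 and Ppargc1a-205 start (13804 and 13835 nt), and is called the inner start. The annotated promoter peaks held 21.6% of the Pol II signal of the gene. The inner start held 413 and 393 (WT), 405 and 259 (*Trdn-as* KO) and 411 and 400 (*Mettl3* KO). The annotated distal promoter held 147 and 141 (WT), 111 and 73 (*Trdn-as* KO) and 111 and 115 (*Mettl3* KO). At the distal promoter all 4 knockout libraries were below both WT libraries, while at the inner start *Trdn-as* KO replicate 2 stood alone. The distal log2 difference was -0.67 (-1.16 to -0.18; adjusted p = 0.401 by limma) in *Trdn-as* KO and -0.35 (-0.83 to 0.14; adjusted p = 0.501) in *Mettl3* KO. At the inner start *Trdn-as* KO differed from WT by -0.31 (-0.67 to 0.04; adjusted p = 0.718). Without *Trdn-as* KO replicate 1, so that replicate 2 stood alone for the genotype, the distal promoter (-0.97) and the inner start (-0.64) both passed the test against WT, and without replicate 2 the differences were -0.37 and 0.01 and neither passed.

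Within a library, where the scaling cancels, the distal peak was 0.356 and 0.359 of the inner start in WT. In *Trdn-as* KO this ratio was 0.274 and 0.282, and *Mettl3* KO had 0.270 and 0.287. The replicates were close and both knockouts lay below WT. Of the 5 genes with a second start or promoter peak whose ratio was taken, *Rxra* and *Ppard* had the same order, *Esrrb* the opposite one (the ratios given with that gene, all 4 knockout libraries above WT) and *Esrrg* neither. At *Rxra* the second promoter peak was 0.610 and 0.704 of the first in WT and 0.508 to 0.589 in the 4 knockout libraries, and at *Ppard* 0.222 and 0.329 in WT against 0.0957 to 0.216. Among 4364 genes with 2 or more tested promoter peaks, all 4 knockout ratios of the second to the leading peak lay below both WT ratios in 12.8% and above both in 3.9%. The inner start of *Ppargc1a* is not annotated as a promoter, so that share is of another quantity than the *Ppargc1a* ratio, and nothing here shows the order to be particular to this gene. At *Ppargc1a* an exact two-sided permutation test gave p = 0.33 for each knockout, the smallest that 2 libraries against 2 can give, as it did at *Rxra*, *Ppard* and *Esrrb*, and the ratios were compared after these values were seen. The 2 *Trdn-as* KO ratios of *Ppargc1a* fell among those of *Mettl3* KO. *Trdn-as* KO replicate 2, the lowest library at both peaks, had a ratio close to that of replicate 1.

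**Figure D3:**
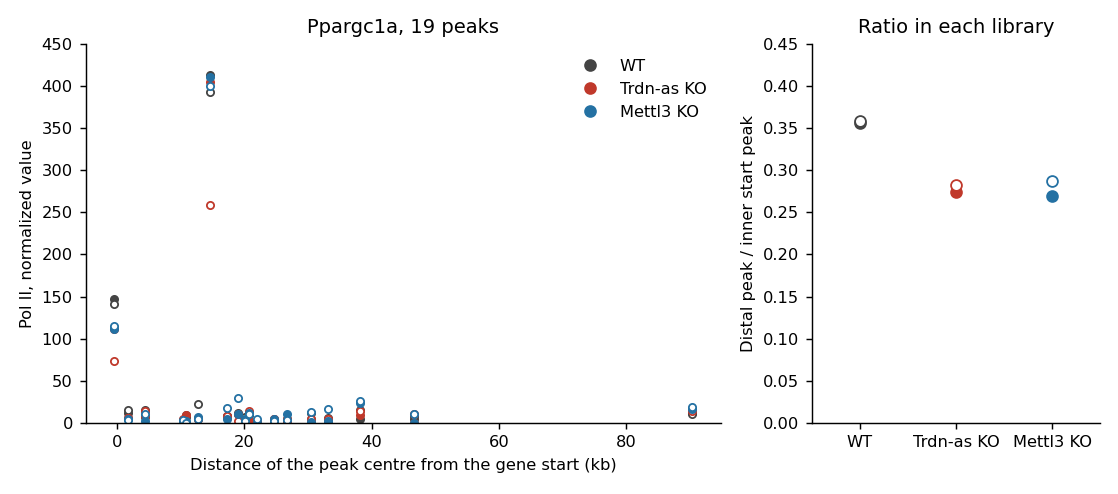
RNA polymerase II at the 19 peaks of *Ppargc1a* by distance of the peak centre from the gene start (left), and the ratio of the distal promoter peak to the inner start peak in each library (right). Filled points are replicate 1 and open points replicate 2. The 2 WT ratios, 0.356 and 0.359, lie above the 4 knockout ratios.

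*Ppargc1b* (ENSMUSG00000033871, chromosome 18 from 61431207 to 61533502, minus strand) encodes PGC-1β, the coactivator that maintains mitochondrial content together with PGC-1α. Its promoter peak was the widest of the members at 6937 nt and held 1497 and 1507 (WT), 1487 and 1275 (*Trdn-as* KO) and 1606 and 1759 (*Mettl3* KO). Another 34 peaks lay along the gene body, 25 of them tested. Between the 2 knockouts, 3 of the 87 member peaks were called by limma, against 1.5% of all 52655 peaks, and all 3 were inside *Ppargc1b* and lower in *Trdn-as* KO (1.15% of all peaks were called lower). A total of 17 (19.5%) had an unadjusted p under 0.05, 15 of them lower, against 17.9% of all peaks. Of the 17, 10 were peaks of the *Ppargc1b* body, and the other 62 member peaks had 7 (11.3%).

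The strongest of these peaks, centred 68214 nt into the gene, held 109 and 176 (WT), 109 and 75 (*Trdn-as* KO) and 183 and 197 (*Mettl3* KO). The difference of *Trdn-as* KO from *Mettl3* KO was -1.06 ± 0.239 (SE; adjusted p = 0.010 by limma). The peak at 70044 nt held 15 and 17 (WT), 8 and 4 (*Trdn-as* KO) and 38 and 22 (*Mettl3* KO) (-2.16 ± 0.534, adjusted p = 0.0218 by limma). Both *Trdn-as* KO values there were under the minimum of the filter, which only WT and *Mettl3* KO reached. The size of that difference therefore rests on few reads in *Trdn-as* KO and is imprecise. The peak at 41726 nt held 48 and 37 (WT), 18 and 16 (*Trdn-as* KO) and 50 and 42 (*Mettl3* KO) (-1.38 ± 0.366, adjusted p = 0.0355 by limma). At all 3 peaks both *Trdn-as* KO libraries lay below both *Mettl3* KO libraries, and at the last 2 also below both WT libraries. Without *Trdn-as* KO replicate 2, none of the 3 passed the test, with differences of -0.80, -1.74 and -1.30, and without either *Mettl3* KO library none passed. With no filter, with only the compared genotypes or with no variance trend none of the 87 member peaks was called, and with uniquely mapped reads as the library size 1 was, that at 70044 nt. Of the 25 tested peaks of the gene body, 21 were lower in *Trdn-as* KO and 14 had both *Trdn-as* KO libraries below both *Mettl3* KO libraries, which 29.9% of all peaks tested did. Against WT, 18 were lower and 13 had both libraries below both WT libraries, against 19.1% of all peaks.

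Summed over the 34 peaks, Pol II along the body of *Ppargc1b* was 786 and 902 (WT), 629 and 554 (*Trdn-as* KO) and 972 and 970 (*Mettl3* KO). On this scale the 3 genotypes did not overlap. Scaled to uniquely mapped reads the sums were 66.4 and 81.7 RPM (WT), 45.4 and 25.5 (*Trdn-as* KO) and 73.8 and 80.4 (*Mettl3* KO), where WT and *Mettl3* KO overlapped and *Trdn-as* KO was lowest. This sum was formed after the single peaks had been seen, and it took the place of its peaks in the fit. *Trdn-as* KO was 0.608-fold *Mettl3* KO (log2 difference -0.72 ± 0.140, adjusted p = 0.00157 by limma) and 0.701-fold WT (-0.51, adjusted p = 0.114), and *Mettl3* KO was 1.15-fold WT (0.21, adjusted p = 0.484). The difference from WT passed the test after rescaling within the target (-0.46, adjusted p = 0.00154) and without *Trdn-as* KO replicate 1 (-0.60, adjusted p = 0.00913), and in none of the other settings, with -0.42 (adjusted p = 0.160) without replicate 2. Without *Trdn-as* KO replicate 2 the difference from *Mettl3* KO was -0.63 (adjusted p = 0.014), and without *Mettl3* KO replicate 1 or 2 it was -0.72 (adjusted p = 0.33 and 0.538). The difference against the median of all peaks tested was -0.56, and -0.58 where uniquely mapped reads set the library size and moved that median from -0.157 to -0.594. The adjusted p was 0.276 with those reads, 0.270 with no filter, 0.114 with only the compared genotypes and 0.393 with no variance trend. At the start peak the difference was smaller, -0.29 (-0.53 to -0.05, adjusted p = 0.19), though it passed without *Trdn-as* KO replicate 1 (-0.40, adjusted p = 0.00215), and was -0.18 (adjusted p = 0.234) without replicate 2. The share of the gene's Pol II signal in the body was 34.4% and 37.4% (WT), 29.7% and 30.3% (*Trdn-as* KO) and 37.7% and 35.5% (*Mettl3* KO; exact two-sided permutation p = 0.33 for *Trdn-as* KO against either, the smallest possible).

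**Figure D4:**
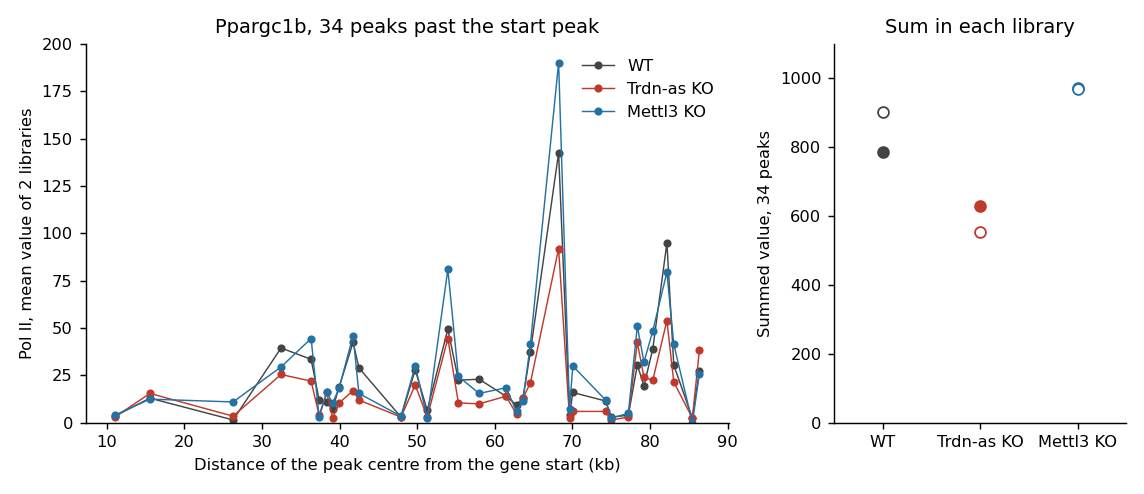
RNA polymerase II at the 34 peaks of *Ppargc1b* past the start peak, as the mean value of 2 libraries by distance of the peak centre from the gene start (left; lines join neighbouring peaks), and their sum in each library (right; filled replicate 1, open replicate 2). The *Trdn-as* KO sums, 629 and 554, lie below those of WT and *Mettl3* KO.

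*Klf15* (ENSMUSG00000030087, chromosome 6 from 90439558 to 90452220, plus strand) held 654 and 550 (WT), 594 and 460 (*Trdn-as* KO) and 548 and 554 (*Mettl3* KO) at its promoter. The highest library was WT and the lowest was *Trdn-as* KO replicate 2, with overlap between the genotypes. Scaled to uniquely mapped reads, both WT libraries (55.2 and 49.8 RPM) lay above all 4 knockout libraries (21.1 to 45.9). On that scale the median of all peaks tested was -0.65 in *Trdn-as* KO and -0.06 in *Mettl3* KO against WT. The log2 difference of the normalized values was -0.20 (-0.51 to 0.11) in *Trdn-as* KO and -0.12 (-0.43 to 0.19) in *Mettl3* KO. The first was -0.01 without *Trdn-as* KO replicate 2 and -0.38 (adjusted p = 0.0687 by limma) without replicate 1, and the second 0.00 without WT replicate 1 and -0.25 without WT replicate 2. The promoter peaks carried 94.0% of the Pol II signal of its 4 peaks.

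By the range of genotype means at a leading promoter peak, the distal promoter of *Ppargc1a* (0.67 on the log2 scale) and *Pparg* (0.53) varied most. Of 4481 genes of like level, the leading promoter peaks of *Tnf* (r = 0.996) and *Mmrn2* (0.98) had the pattern most like that of distal *Ppargc1a* over the 6 Pol II libraries. Of 6874 genes, *Zfp580* (0.996), *Blzf1* (0.992) and *Lurap1l* (0.991) were most like *Pparg*. Each is the highest of many correlations over 6 libraries that share their scaling, and is given as a description.

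Genes on which these factors act were examined at their leading promoter peaks. The lists were chosen with earlier results of these data known, so their counts beside the share of all peaks are a description. Of 26 tested genes of PPAR and fatty acid use, *Mettl3* KO against WT had 3 higher and 0 lower, where 1.76% of all leading promoter peaks were called. Among them were *Pdk4*, which spares glucose by blocking pyruvate dehydrogenase, and *Acadm*, of medium-chain fatty acid oxidation. *Pdk4* held 263 and 251 (WT), 262 and 177 (*Trdn-as* KO) and 479 and 472 (*Mettl3* KO) (0.89 against WT, adjusted p = 0.00459 by limma). *Acadm* held 425 and 435 (WT) against 668 and 629 (*Mettl3* KO; 0.59, adjusted p = 0.0394). The list's median was 0.36, against 0.26 over all leading promoter peaks. With only the compared genotypes in the fit, 4861 of all 52655 peaks were called, 4078 of them higher, against 629 in the main fit. None of the 26 was called with uniquely mapped reads, with no filter, with no variance trend or without any 1 library of either genotype, and 17 were, all higher, with only the compared genotypes.

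Between the knockouts, 7 of the 26 were lower in *Trdn-as* KO and 0 higher, where 2.06% of all leading promoter peaks were called, and the list's median was -0.51 against -0.30 over all leading promoter peaks. The smallest adjusted p were those of *Txnip*, an inhibitor of glucose uptake (-0.75, adjusted p = 8.81e-07 by limma), *Pdk4* (-1.14, 7.96e-05), *Fabp3*, the fatty acid binding protein of heart (-0.51, 0.00421), and *Angptl4*, an inhibitor of lipoprotein lipase (-0.84, 0.0108). *Txnip* was also lower in *Trdn-as* KO than in WT, the 1 gene of the list that was called there (0.251% of all leading promoter peaks), with 3711 and 3610 (WT), 2830 and 2244 (*Trdn-as* KO) and 4172 and 4312 (*Mettl3* KO). Without *Trdn-as* KO replicate 2, 3 of the 26 were called between the knockouts, *Txnip* (-0.58), *Pdk4* (-0.86) and *Fabp3* (-0.35), and *Txnip* passed against WT (-0.37, adjusted p = 0.00107 by limma). Without *Trdn-as* KO replicate 1 more peaks were called over all those tested, whose median moved from -0.157 to -0.273. More of the 26 were called in that setting too, all lower. Between the knockouts 2 were called with only the compared genotypes and 0 with uniquely mapped reads, no filter, no variance trend or without either *Mettl3* KO library.

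Targets of ERRs and PGC-1 gave 0 of 22 against WT in either knockout (0.251% of all leading promoter peaks in *Trdn-as* KO and 1.76% in *Mettl3* KO), and 1 of 22 in *Trdn-as* KO against *Mettl3* KO (2.06%). This was *Fndc5*, higher in *Trdn-as* KO, with 264 and 299 (WT), 352 and 285 (*Trdn-as* KO) and 192 and 189 (*Mettl3* KO) (0.73, adjusted p = 0.0298 by limma). It passed without *Trdn-as* KO replicate 2 (0.88, adjusted p = 0.0252). Targets of KLF15 gave 0 of 8 against WT and 1 of 8 between the knockouts, the carnitine carrier *Slc25a20*, which is also in the PPAR list and was lower in *Trdn-as* KO (-0.92, adjusted p = 0.0246 by limma, and -0.60, adjusted p = 0.192, without *Trdn-as* KO replicate 2). Neither was called with uniquely mapped reads, no filter, only the compared genotypes, no variance trend or without either *Mettl3* KO library. None of 17 other nuclear receptors, 17 coregulators and 12 other KLF genes was called in any of the 3 comparisons, where the shares of all leading promoter peaks were those just given.

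Calls of *Mettl3* KO against WT were also found among clock genes and fibroblast markers, lists that were likewise chosen with earlier results known. Of 17 clock genes, 8 were called against WT, 6 lower and 2 higher, where 1.76% of all leading promoter peaks were called. *Dbp*, a clock output factor, held 3291 and 3501 (WT), 3267 and 2482 (*Trdn-as* KO) and 1710 and 1650 (*Mettl3* KO), and *Arntl*, the core activator, held 204 and 185, 296 and 238, and 540 and 563 in the same order. Between the knockouts, 2 clock genes were higher in *Trdn-as* KO and 3 lower (2.06% of all leading promoter peaks). *Per1*, a repressor of the clock, was the 1 clock gene called in *Trdn-as* KO against WT (0.251%), with 2240 and 2322 (WT), 1812 and 1494 (*Trdn-as* KO) and 1531 and 1572 (*Mettl3* KO) (-0.47, adjusted p = 0.0421 by limma, and -0.33, adjusted p = 0.0238, without *Trdn-as* KO replicate 2). With no filter, 2 clock genes were called in *Mettl3* KO against WT, and with uniquely mapped reads, no variance trend or without either *Mettl3* KO library 0 were. With only the compared genotypes 14 were, 10 of them lower, where 4861 of all 52655 peaks were called, 4078 of them higher. Without either WT library fewer clock genes were called than in the main fit. Neither *Txnip* nor *Per1* passed in *Trdn-as* KO against WT with uniquely mapped reads, no filter, only the compared genotypes, no variance trend or without either WT library. Of 5 fibroblast markers, 4 were higher in *Mettl3* KO (*Col1a1*, *Col1a2*, *Pdgfra* and *Tcf21*), none was at 0 in all libraries, where 1.76% of all leading promoter peaks were called, and the summed signal was 795 and 827 (WT), 1185 and 851 (*Trdn-as* KO) and 1599 and 1556 (*Mettl3* KO). Of the same 5 markers, 3 were called lower in *Trdn-as* KO when the knockouts were compared (2.06%), and 0 were without *Trdn-as* KO replicate 2. With uniquely mapped reads, no filter or no variance trend, or without any 1 library of WT or *Mettl3* KO, 0 fibroblast markers were called in *Mettl3* KO against WT. Endothelial (4 tested), leukocyte (4) and smooth muscle markers (4) had none called in any comparison, and *Myh6* was lower in *Trdn-as* KO against WT and against *Mettl3* KO (-0.35 and -0.39), which without *Trdn-as* KO replicate 2 were -0.16 and -0.21 and did not pass. The hour at which hearts were taken is not given in the sources used here, and the part of time of day or of fibroblasts in the values of the 10 genes was not tested.

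CTCF at the 10 genes showed no called difference. In *Trdn-as* KO against WT, 0 of 69 peaks were called by limma (0.587% of all 60649) and 5 had an unadjusted p under 0.05 (7.25%, against 10.2% of all peaks). For *Mettl3* KO against WT, 0 of 69 were called (0.185% of all peaks) and 4 had such a p (5.8%, against 15.7%). Between the knockouts, 0 of 69 were called (1.37%) and 9 had such a p (13.0%, against 18.8%). The smallest adjusted p, 0.0829, was at a small *Ppargc1a* peak 1718 nt into the gene, with 30 and 31 (WT), 22 and 21 (*Trdn-as* KO) and 16 and 20 (*Mettl3* KO). All 4 knockout libraries were below both WT libraries there (-0.74, -1.11 to -0.36 in *Mettl3* KO against WT). Pol II at the same peak was 12 and 15 (WT), 6 and 6 (*Trdn-as* KO) and 5 and 3 (*Mettl3* KO), under the minimum in both knockouts.

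Per kb of peak, CTCF stood highest at the *Ppard* promoter (mean of 6 libraries 103.1 normalized units per kb), followed by a peak 86360 nt into *Ppargc1b* (100.4) and one 72365 nt into *Esrrb* (90.5). The wide promoter peak of *Ppargc1b* had a value like that of *Ppard* but 28.3 per kb. It held 183 and 215 (WT), 194 and 189 (*Trdn-as* KO) and 201 and 197 (*Mettl3* KO). The *Ppard* promoter held 196 and 181 (WT), 203 and 209 (*Trdn-as* KO) and 202 and 203 (*Mettl3* KO). Taken as a share of the summed values of a library, CTCF at *Ppard* was 1.41 to 2.32 times the share of the IgG library of the same genotype. At the *Ppargc1b* promoter that figure was 0.61 to 0.85, at the *Ppara* promoter 0.45 to 0.79 and at *Klf15* 0.36 to 0.64. A share sets a peak against the other peaks of its own library, so these figures do not show a lack of CTCF there. Inside the genes, 6 peaks reached the 80th percentile of CTCF. The strongest, 86360 nt into *Ppargc1b*, held 132 and 120 (WT), 133 and 148 (*Trdn-as* KO) and 127 and 127 (*Mettl3* KO), a share 4.86 (WT), 1.78 (*Trdn-as* KO) and 1.90 (*Mettl3* KO) times that of IgG, with Pol II of 27 and 28, 36 and 41, and 33 and 19. A pair of peaks in *Esrrb*, 41799 and 72365 nt into the gene and on either side of its inner start, held CTCF of 53 to 68 and 59 to 80 with a mean Pol II of 7 and 9.5.

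**Figure D5:**
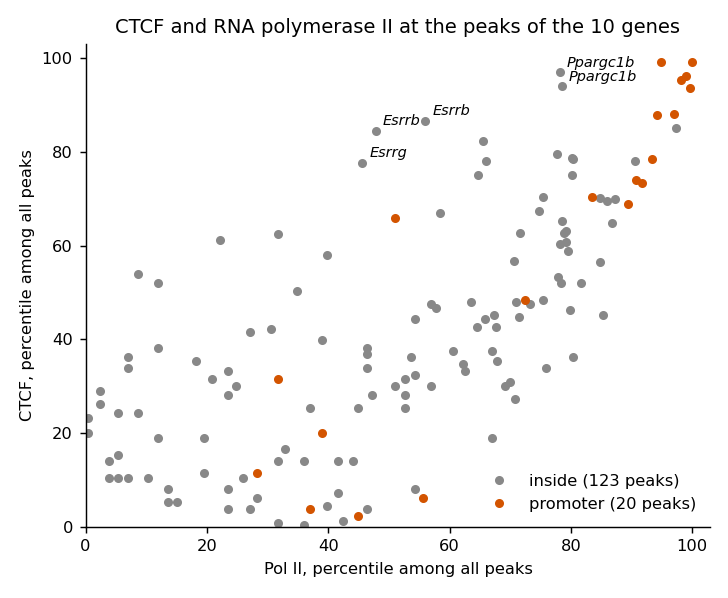
Percentile of the mean CTCF value (y axis) against that of the mean RNA polymerase II value (x axis) among all peaks, for the 143 peaks of the 10 genes. Promoter peaks (orange) with much Pol II lie at the upper right, and the labelled inside peaks of *Ppargc1b*, *Esrrb* and *Esrrg* are high in CTCF for their Pol II.

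Against IgG, with both scaled to uniquely mapped reads, Pol II at the 10 leading promoter peaks was 9.48 to 27.3 times the background in WT, 5.22 to 24.0 times in *Trdn-as* KO and 6.32 to 28.8 times in *Mettl3* KO. *Ppara* was highest in WT (27.3) and *Ppard* lowest (9.48). The IgG libraries held 9 to 90, 3 to 26 and 4 to 52 reads at these peaks, so single ratios are imprecise and were not tested. As a share of the reads in peaks in place of all mapped reads, the ratios were 1.16 to 3.32 in WT (median 1.99 and not 16.5), 0.99 to 4.63 in *Trdn-as* KO (median 1.54) and 0.88 to 4.01 in *Mettl3* KO (median 2.05). On this scale the lowest ratio in either knockout was under 1. Each library is divided by its own total in peaks, so such a ratio does not show a lack of Pol II there.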

How the data were processed

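Reads of the ChIP-seq libraries were trimmed by the authors with Trimmomatic 0.39, aligned to GRCm39 (mm39) with STAR 2.7.11b and cleared of duplicates with Picard 3.1.1, and peaks were called with MACS and merged into 101256 union peaks. The authors counted reads per peak with featureCounts, divided them by a DESeq2 1.36.0 size factor per library and rounded them, so the deposited values are a score of normalized signal and not counts. The table holds 15 columns of single libraries, all of which were mapped, and the inputs were not analysed here.

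Peaks in which 2 or more libraries of a target reached 10 were tested with limma 3.58.1 (R 4.3.3) on log2(value + 1) in a model of 3 genotypes with a variance trend, Benjamini-Hochberg adjustment over all peaks and a threshold of 0.05. The worth of 1 read was estimated from the spacing of the values for Pol II and IgG, and gave ratios to IgG with the uniquely mapped reads stated by the study. For CTCF the spacing had no unique solution. Depth in peaks ran from 1987506 to 4953264 reads for Pol II and from 273422 to 813076 for IgG. Both the fit and the step estimate were tested on simulated data. Transcript starts came from GENCODE vM21 as distances from the gene 5′ end, where gene lengths were equal in both builds (*Esrra* differs by 27 nt), and promoter windows from RefSeq GRCm38.p6.

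Every member peak is covered by the rule. For each gene list the leading promoter peak stands for a gene, up to 4 called genes per list, comparison and direction are named by smallest adjusted p (2 genes that the rules would name are not reported here), and *Slc25a20*, the clock and fibroblast examples and the ratio of *Ppargc1a* were chosen after their values were seen. The members and lists were chosen with earlier results of these data known. Other scalings, filters, models, pseudocounts and left-out libraries were recomputed. Python 3.11.15, pandas 2.3.3, numpy 2.4.6, scipy 1.17.1 and matplotlib 3.10.9 were used.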

Additional observations from a re-analysis of the deposited data

How the results depend on the processing

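With 2 libraries per genotype the tests rest on few samples. For CTCF, every alternative run gave 0 called member peaks, and the scaling by uniquely mapped reads was not run there. For *Trdn-as* KO against WT (0 of 87 Pol II peaks), the other settings gave 0 as well, and leaving out 1 library gave 0 to 5, with 5 without *Trdn-as* KO replicate 1. Without *Trdn-as* KO replicate 1 more of all peaks tested were called too, in this comparison and against *Mettl3* KO. Their median log2 difference moved from -0.07 to -0.19 against WT and from -0.16 to -0.27 against *Mettl3* KO. For *Mettl3* KO against WT, fitting only the compared genotypes gave 1, the start peak of *Ppargc1b*, where 4861 of all 52655 peaks were called. For *Trdn-as* KO against *Mettl3* KO (3), uniquely mapped reads gave 1 (the *Ppargc1b* peak at 70044 nt, under the minimum in *Trdn-as* KO). No filter, only the compared genotypes and no variance trend gave 0 each. Leaving out 1 library gave 0 to 16, with 16 without *Trdn-as* KO replicate 1. Summed per gene against WT, 0 genes were called, 1 with only the compared genotypes and 0 to 3 without 1 library. Outside the start peaks, a sum added after the data were seen, 0 were called against WT, 1 after rescaling within the target (*Ppargc1b* in *Trdn-as* KO) and 0 to 2 without 1 library. The differences of *Ppargc1b* against *Mettl3* KO kept their sign in all settings, from -1.18 to -0.59 for the body. At the inner start of *Ppargc1a* the difference of *Trdn-as* KO from WT was -0.31, with -0.91 for uniquely mapped reads, and the sign turned without replicate 2 (-0.64 to 0.01 without 1 library). That of *Mettl3* KO from WT was 0.01, and the sign turned with uniquely mapped reads (-0.13), after rescaling (-0.07) and without WT replicate 2 (-0.03) or *Mettl3* KO replicate 1 (-0.01), with 0.04 as the highest value without 1 library. The median ratio to IgG in WT moved from 16.5 to 1.99 with reads in peaks as the library size. The gene lists were put through the same settings after the data were seen, and none of their calls in the 3 comparisons was kept with no variance trend. The causes were not tested.

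Replicate numbers did not pair the libraries, with correlations of same-numbered deviations of -0.00957 to -0.00023 for Pol II and -0.238 to 0.0059 for CTCF. The replicate block gave 0, 0 and 3 called Pol II peaks of the members in the 3 comparisons, as without it, and 0 for CTCF in each. With the numbers of the CTCF libraries crossed, 503 of all peaks were called in *Trdn-as* KO against WT, against 356 without a block and 236 with it. Over all Pol II peaks, *Trdn-as* KO against WT gave from 4 to 1908 calls over the settings, *Mettl3* KO against WT gave from 0 to 4861, and *Trdn-as* KO against *Mettl3* KO from 12 to 9539. Over all CTCF peaks the ranges were 1 to 503, 0 to 761 and 1 to 1273 in the same order.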
